A study of Rattus norvegicus with 9 samples.

Results

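Complement is a cascade of plasma and membrane proteins that marks surfaces for removal and can pierce membranes. The present results concern 9 complement genes in primary rat osteoblasts: C1r and C1s, the proteases of the classical pathway, C3, the central component, Cfb and Cfd of the alternative pathway, C6 and C7 of the terminal pathway, and the regulators Serping1 and Cd55. They were chosen by gene symbol, with their levels in these libraries already known, and each symbol matched 1 row among the 19085 genes listed. Their levels and differences are therefore given as a description. Counts of members past a threshold on p-value and fold are part of that description and not a test of the set. P-values of single genes are printed only for genes outside the 9.

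Messenger RNA came from first-passage osteoblasts isolated with collagenase from the calvaria of male Sprague–Dawley rats at 24 hours of age, although the sample labels name the knee. All 9 libraries came from cells kept for 7 days in osteogenic induction medium containing fetal bovine serum, β-glycerophosphate, ascorbic acid and dexamethasone, a glucocorticoid. The control group received this medium alone, thrombin was added at 20 U/mL in the thrombin group, and the PD03 group combined the same dose of thrombin with the MEK kinase inhibitor PD0325901 (PD03) at 0.1 μM, a dose that a protocol in the labels writes as 0.1 mM. Each group had 3 libraries, and no group received PD03 without thrombin. The study calls them independent samples, but the sources used here do not say whether they came from separate litters or cultures, so the spread between them may be partly technical.

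Total counts ranged from 15447832 to 19841468 per library, and 13256 genes passed the filter on low counts. The preparations carried the osteoblast collagen gene Col1a1 and the transcription factor gene Runx2 in every library (from 509 counts upward), whereas the late marker Bglap had 1 to 5 counts and Ibsp had 0 or 1. The defining macrophage markers Ptprc and Adgre1 had 0 to 8 counts in any library, and the adipocyte markers Adipoq and Plin1 had 0 to 3. The summed level of the 9 macrophage markers was 20.4 to 23.9 CPM in control, 29.0 to 32.9 CPM in thrombin and 17.5 to 18.6 CPM in PD03 libraries, nearly all of it from Cd14. Summed levels in control, thrombin and PD03 libraries were 60653 to 66446, 55641 to 58871 and 95064 to 98199 CPM for the osteoblast markers, 90.5 to 101, 66.3 to 71.8 and 77.7 to 85.0 CPM for the chondrocyte markers (Col2a1 at 783 to 1448 counts), and 7.89 to 8.90, 7.35 to 9.75 and 12.0 to 14.1 CPM for the endothelial markers (Pecam1 at 1 to 8 counts). The osteoblast and chondrocyte sums were thus lowest with thrombin, as were C1r, C1s, Serping1, C3, Cfb, Cd55 and C6. Nearly all of the osteoblast sum came from Col1a1 and Col1a2. Of the 6 tested osteoblast markers, 4 were lower with thrombin, namely Alpl (log2 fold change -2.24), Phex (-0.24), Col1a2 (-0.22) and Col1a1 (-0.15). Alpl had 19 to 41 counts in the control libraries and 6 in each thrombin library. Runx2 (0.26) and Sp7 (0.53) were higher. The chondrocyte markers Sox9 (0.89) and Acan (1.29) were also higher with thrombin, while Col2a1 (-0.78) and Col9a1 (-0.11) were lower. The part of these cells in the levels was not tested. In RNA from whole cultures, fewer cells of a type and less RNA per cell cannot be told apart.

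In the body most soluble complement proteins are made by the liver, but connective tissue cells also secrete many of them. In the classical pathway, C1q bound to a target activates C1r, which cleaves C1s, and C1s then cleaves C4 and C2 to form an enzyme that splits C3. In the alternative pathway, Cfb bound to C3b is cut by Cfd, forming a second enzyme that splits C3. The terminal proteins from C5 to C9 assemble into a pore. Serping1 (C1 inhibitor) blocks C1r and C1s, and Cd55 (decay-accelerating factor) dismantles the C3-splitting enzymes on the cell's own membrane.

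RefSeq (build GRCr8) gave the promoter of 5 of the 9 genes (C6, C3, C1r, Cfd and Cd55), each from 250 bases before to 50 bases after the annotated start. The 3 printed here are those in which the letters TTGCNNAA, a pattern bound by C/EBP factors, occur on either strand, and the capitals mark this pattern and TATAAA. They belong to C6 (chr2:55573383-55573682, plus strand), C3 (chr9:2201290-2201589, minus strand) and C1r (chr4:159098763-159099062, plus strand), each written in the direction of its gene.
C6: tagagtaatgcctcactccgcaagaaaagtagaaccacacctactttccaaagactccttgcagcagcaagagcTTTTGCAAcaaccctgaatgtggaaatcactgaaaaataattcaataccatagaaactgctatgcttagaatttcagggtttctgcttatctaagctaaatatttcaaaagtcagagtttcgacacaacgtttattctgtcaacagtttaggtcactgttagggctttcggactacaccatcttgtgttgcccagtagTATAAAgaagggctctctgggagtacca
C3: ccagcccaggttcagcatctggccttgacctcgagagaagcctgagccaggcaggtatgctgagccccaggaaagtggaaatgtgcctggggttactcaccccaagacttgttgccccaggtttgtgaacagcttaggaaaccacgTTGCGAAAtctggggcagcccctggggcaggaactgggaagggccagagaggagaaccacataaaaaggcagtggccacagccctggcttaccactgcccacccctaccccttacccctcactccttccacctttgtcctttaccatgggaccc
C1r: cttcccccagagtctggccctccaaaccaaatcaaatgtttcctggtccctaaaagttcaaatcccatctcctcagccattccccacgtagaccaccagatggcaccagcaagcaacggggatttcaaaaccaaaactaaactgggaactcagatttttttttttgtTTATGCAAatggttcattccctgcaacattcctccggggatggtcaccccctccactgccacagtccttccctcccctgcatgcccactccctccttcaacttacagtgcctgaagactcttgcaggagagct
The match starts at base -176 in C6, -104 in C3 and -83 in C1r, counted from the annotated start, and C6 also holds TATAAA at base 23. The pattern TTGCNNAA was found in 10.6% of all 33469 promoters of this length, and TATAAA in 14.2%. No match was found in the 5 promoters, on either strand, for TGANTCA of AP-1 (7.33% of all promoters), TTCNNNGAA of STAT factors (8.87%), ACANNNTGT of the glucocorticoid receptor (6.86%), the NF-κB pattern (1.53%) or the interferon-stimulated response element (3.92%). These are matches of letters and not measured binding sites.

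Per gene length, the order of the 9 genes was nearly the same in all groups. In the control group C1r stood highest at 358 ± 2.72 FPKM (SD, n = 3), followed by C1s at 240 ± 3.84, Cd55 at 122 ± 1.22, Serping1 at 110 ± 4.60, C3 at 69.9 ± 3.70 and Cfb at 20.6 ± 0.405 FPKM. Cfd at 1.05 ± 0.323 and C6 at 0.418 ± 0.134 FPKM were far below them, and C7 was listed at 0. No neighbouring genes in this order overlapped between libraries in the control group. Averaged over all 9 libraries, C1r ranked 135 and C1s 225 among the 19085 genes by FPKM. In the thrombin group C3 (57.4 ± 2.32 FPKM) stood above Serping1 (49.9 ± 1.85 FPKM), the reverse of the other groups. In the PD03 group C6 (0.834 ± 0.149 FPKM) and Cfd (0.607 ± 0.187 FPKM) overlapped.

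**Figure D1:**
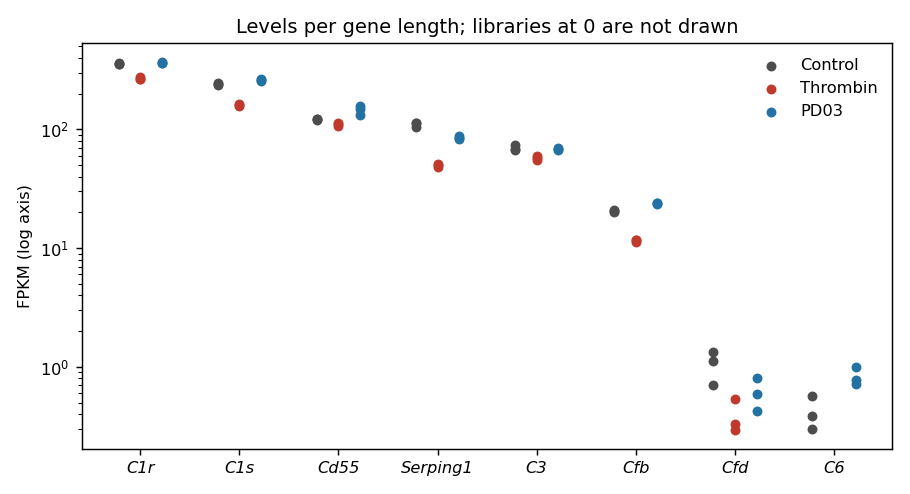
FPKM (log axis) of 8 complement genes in each of the 9 libraries, coloured by group, with libraries at 0 left out. C1r and C1s lie between 157 and 371 FPKM in every library, and Cfd and C6 lie below 1.34 FPKM.

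Together the 9 genes took 0.290% to 0.297% of all counts in the control libraries, 0.211% to 0.218% in the thrombin libraries and 0.304% to 0.308% in the PD03 libraries. The thrombin libraries thus held the smallest share, and no group overlapped another. Against the control group, 4 of the 9 genes (C6, Cfb, Cfd and Serping1) met the threshold for a lower level with thrombin (edgeR adjusted p under 0.05, and a log2 fold change of over 0.58 in size), where 5.44% of all tested genes were called lower and 2.62% higher. Against the thrombin group, 4 of the 9 (C6, C1s, Cfb and Serping1) met it for a higher level with PD03, where 9.61% of all tested genes were called higher and 6.31% lower. Between the PD03 and control groups only C6 met it, where 4.9% of tested genes were called higher and 4.07% lower. The first and second comparison share the thrombin libraries. C7 did not pass the filter on low counts, and the other 8 genes did.

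**Figure D2:**
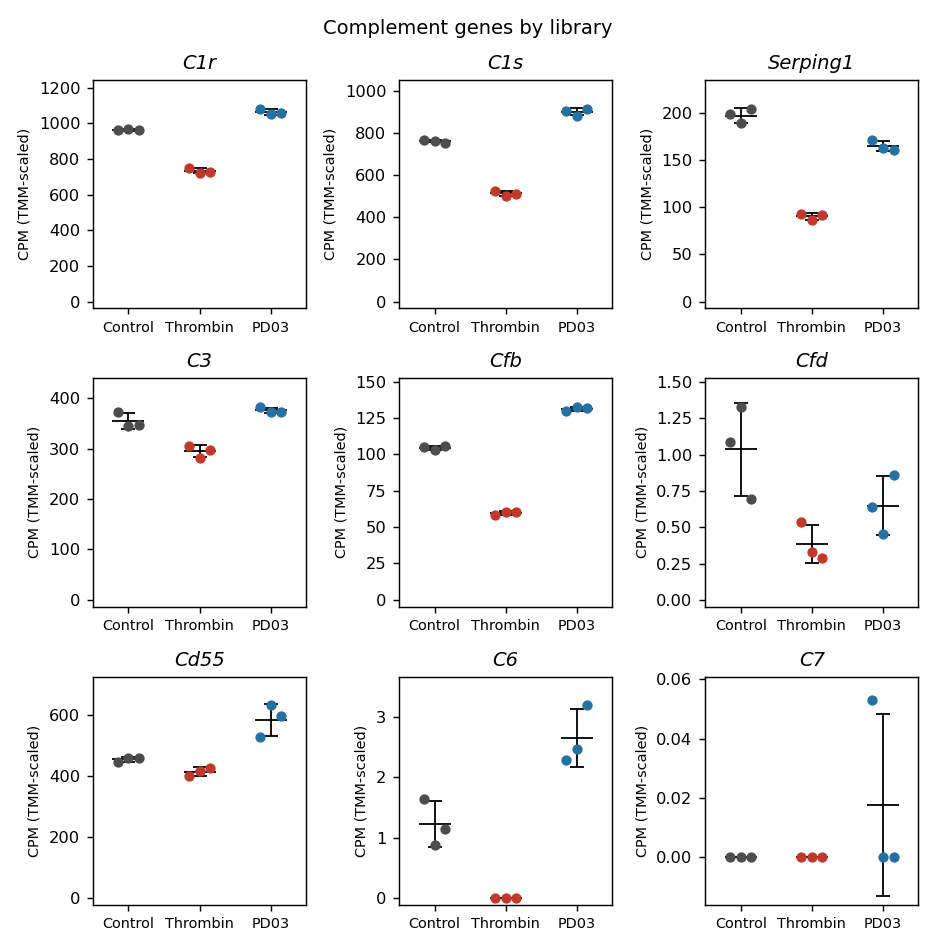
CPM after TMM scaling of the 9 complement genes, 1 point per library, with the mean and SD of each group (n = 3). In 7 genes the thrombin libraries lie below all others, Cfd overlaps between the thrombin and PD03 groups, and C7 has a single count in 1 PD03 library. The share of all tested genes separated in this way was not counted, so the 7 are not set apart from other genes by it.

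Both proteases of the classical pathway were lower with thrombin and passed the control level with PD03. C1s (ENSRNOG00000011971), the protease that cleaves C4 and C2, had levels of 767, 765 and 756 CPM in the control libraries, 528, 504 and 513 CPM in the thrombin libraries and 907, 883 and 916 CPM in the PD03 libraries. The groups did not overlap, and the lowest PD03 library lay above the highest control library. The log2 fold change of C1s was -0.57 with thrombin (standard error 0.03, 1.48-fold lower), just short of the fold threshold. It was -0.58 and past the threshold with library totals, with FPKM plus 1 or 0.1, and without Thrombin replicate 1. With PD03 against thrombin it was 0.81 (standard error 0.03, 1.75-fold higher).

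C1r (ENSRNOG00000011796), which activates C1s, had 960, 969 and 961 CPM in the control libraries, 751, 723 and 728 CPM with thrombin and 1081, 1051 and 1057 CPM with PD03. Its libraries were ordered by group in the same way as those of C1s, but over a narrower range. The difference on the log2 scale was -0.39 with thrombin (standard error 0.03) and 0.53 with PD03 against thrombin (standard error 0.03), both under the fold threshold. C1r and C1s are neighbours in the RefSeq annotation, and C1rl, a related protease gene, lies next to C1r. A long noncoding RNA gene overlaps C1r there, and since the strandedness of the libraries is not given, reads from both could not be told apart. Relative to each other, C1r exceeded C1s per length by 1.48 to 1.51 times in the control libraries, 1.68 to 1.70 times in the thrombin libraries and 1.37 to 1.41 times in the PD03 libraries.

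Serping1, whose product inhibits C1r and C1s, had the widest difference with thrombin among the abundant members. Serping1 (ENSRNOG00000007457) stood at 198, 189 and 204 CPM in the control libraries, 92.6, 86.3 and 91.6 CPM in the thrombin libraries and 171, 163 and 161 CPM in the PD03 libraries. The thrombin libraries were lowest, and the PD03 libraries lay between them and the control libraries without overlap. Serping1 was 2.19-fold lower with thrombin than without it (log2 fold change -1.13, standard error 0.04), and 1.83-fold higher with PD03 than with thrombin (0.87, standard error 0.04). Against the control group it was -0.26 with PD03 (standard error 0.04), and Serping1 was the one member above 10 CPM whose mean with PD03 lay below the control mean after TMM scaling.

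Messenger RNA of C1s or C1r relative to that of Serping1, the gene of their inhibitor, differed by group in another order than the genes themselves. The ratio of C1s to Serping1 in FPKM, which does not depend on how libraries are scaled, was 2.17, 2.28 and 2.08 in the control libraries, 3.20, 3.28 and 3.15 in the thrombin libraries and 2.98, 3.04 and 3.20 in the PD03 libraries. Both treated groups lay above the control group, and they overlapped each other. The ratio of C1r to Serping1 was 3.25 ± 0.146 in the control group, 5.41 ± 0.143 in the thrombin group and 4.28 ± 0.0811 in the PD03 group (SD, n = 3), with no overlap.

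**Figure D3:**
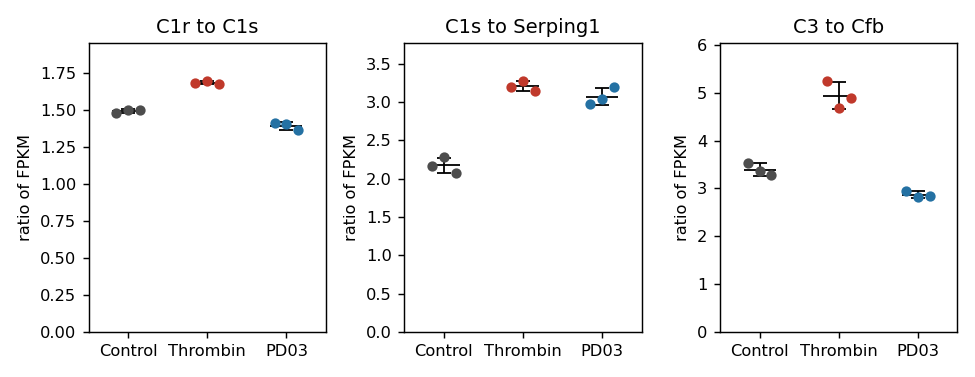
Ratios of FPKM within each library for C1r to C1s, C1s to Serping1 and C3 to Cfb, 1 point per library with the mean and SD of each group (n = 3). The C1s to Serping1 ratio is 2.08 to 2.28 in the control group and 2.98 to 3.28 in the other 2 groups, whereas the C3 to Cfb ratio is highest with thrombin and lowest with PD03.

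C3, on which all pathways converge, differed less than most other members. C3 (ENSRNOG00000046834) had 373, 346 and 347 CPM in the control libraries, 305, 282 and 298 CPM in the thrombin libraries and 382, 373 and 373 CPM in the PD03 libraries. The thrombin libraries were lowest, and the PD03 libraries lay only just above the highest control library. On the log2 scale C3 differed by -0.27 between thrombin and control (standard error 0.04) and by 0.35 between PD03 and thrombin (standard error 0.04). Between PD03 and control it was 0.08 (standard error 0.04) after TMM scaling and -0.03 with libraries scaled by their totals, so the direction depended on the scaling. That scaling shifted the median log2 fold change of all tested genes to -0.12 in this comparison, and it took C1r from 0.14 to 0.03.

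Cfb, the protease component of the alternative C3-splitting enzyme, differed more than C3. Cfb (ENSRNOG00000051235) stood at 105, 103 and 105 CPM in the control libraries, 58.1, 60.2 and 60.7 CPM with thrombin and 130, 132 and 132 CPM with PD03. The 3 groups were clearly apart, with the PD03 libraries highest. Cfb was 1.75-fold lower with thrombin (log2 fold change -0.81, standard error 0.05), and with PD03 it was above the thrombin group by 1.14 (standard error 0.05) and above the control group by 0.33 (standard error 0.04) on the log2 scale. The ratio of C3 to Cfb was 3.39 ± 0.131 in the control group, 4.94 ± 0.287 in the thrombin group and 2.87 ± 0.0715 in the PD03 group. The gene length implied by the deposited FPKM of Cfb was 5230 bases, close to the 5868 bases of its whole RefSeq gene with introns. The adjacent complement gene C2 matched no row by symbol, and whether reads of other transcripts were counted for Cfb was not tested.

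Cfd (adipsin), which cuts Cfb and is best known from fat cells, was near the lower limit of measurement. Cfd (ENSRNOG00000033564) had 20, 21 and 11 counts in the control libraries, 9, 6 and 5 in the thrombin libraries and 12, 7 and 14 in the PD03 libraries. The control and thrombin libraries did not overlap, whereas the PD03 libraries overlapped both other groups. Cfd was 2.67-fold lower with thrombin (log2 fold change -1.42, standard error 0.45), and the difference between PD03 and thrombin was 0.75 (standard error 0.49). Cfd did not meet the threshold with thrombin under DESeq2, or without Control replicate 2, Thrombin replicate 2 or Thrombin replicate 3. The summed level of the 7 adipocyte markers was 212 to 221 CPM in control, 104 to 110 CPM in thrombin and 163 to 173 CPM in PD03 libraries, nearly all of it from Lpl, while Adipoq and Plin1 had 0 to 3 counts in any library. The part of such cells in the result for Cfd was not tested.

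Cd55, the membrane regulator, had the smallest difference with thrombin and a wider spread with PD03 than C1r, C1s, C3, Cfb or Serping1. Cd55 (ENSRNOG00000003927) had 444, 459 and 458 CPM in the control libraries, 398, 417 and 427 CPM with thrombin and 527, 630 and 594 CPM with PD03. The control and thrombin libraries were close without overlapping, and all PD03 libraries were higher. Cd55 differed by -0.13 on the log2 scale with thrombin (standard error 0.04), by 0.50 with PD03 against thrombin (standard error 0.04) and by 0.36 with PD03 against control (standard error 0.04).

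The terminal genes C6 and C7 encode consecutive parts of the membrane pore. C6 (ENSRNOG00000024115) had 30, 14 and 18 counts in the control libraries, 0 in each thrombin library and 43, 38 and 52 in the PD03 libraries. The control mean was 1.22 ± 0.380 CPM and the PD03 mean 2.64 ± 0.479 CPM (SD, n = 3), while 0 counts allow up to 0.0575 CPM over the thrombin group (a floor of 3 counts, for counting error only). With counts pooled over each group, C6 stood at 1.24 CPM in the control and 2.63 CPM in the PD03 libraries, which is at least 21.6-fold and at least 45.7-fold above the thrombin level. The PD03 libraries lay above all control libraries, with a log2 fold change of 1.09 (standard error 0.31). C7 (ENSRNOG00000061379) had 1 count in PD03 replicate 1 and 0 in the other 8 libraries, which allows up to 0.0599 CPM in the control group. The pair was thus unequal: C6 was detected in 6 libraries, and C7 was not detectable above the floor in any group. Of the other terminal genes, C5 had 0 to 3 counts and C9 had 0 to 8 counts in any library, too few for the filter.

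Among the members themselves, C1r and C3 had the most similar profiles over the 9 libraries, with a Euclidean distance of 0.253 between their centred log2 CPM. C1r and C1s were 0.343 apart, and C1s and Cfb 0.430, whereas C1s and Serping1 were 0.762 apart. C6 was at least 4.43 from every other member, a value that depends on the prior count used for its libraries at 0. By the same measure over all tested genes with at least 1 CPM in their highest group, the gene nearest to C3 was Colec12 (distance 0.129), which encodes a scavenger receptor of the collectin family and is also among the further complement genes described next. The nearest to C1s was Ctsh (0.0842), a lysosomal protease gene, to C1r Efemp2 (0.0908), an elastic fibre gene, to Cfb Ackr3 (0.168), a scavenging chemokine receptor gene, to Serping1 Igfbp4 (0.234), a binding protein gene for insulin-like growth factors, and to Cd55 Cav1 (0.131), a caveolar coat gene. C6 was nearest to Clec3b (0.810) and Cfd to Tlcd3b (0.536). These distances rest on 9 libraries in 3 groups and say only which profiles looked alike.

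A list of 48 further complement genes was then examined, of which 31 matched a row by symbol and 19 passed the filter. This list too was drawn up with earlier results of these data known. Its shares are therefore a description and not independent support for the pattern of the members. With thrombin, 6 of the 19 were called lower and 1 higher, so that 7 (36.8%) were called where 8.06% of all tested genes were. With PD03 against thrombin, 8 were called higher and 2 lower (52.6%, against 15.9% of all tested genes). With PD03 against control, 1 was called higher and 1 lower (10.5%, against 8.97%). The median log2 fold change of the 19 genes was -0.28 with thrombin, 0.38 with PD03 against thrombin and 0.02 with PD03 against control, beside -0.01, 0.01 and -0.00395 for all tested genes. Scaling by library totals changed the share of higher genes among all calls from 60.4% to 46.5% for PD03 against thrombin and from 54.6% to 34.1% for PD03 against control, and it left 5 of the 19 genes called higher with PD03 against thrombin and 2 called lower.

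**Figure D4:**
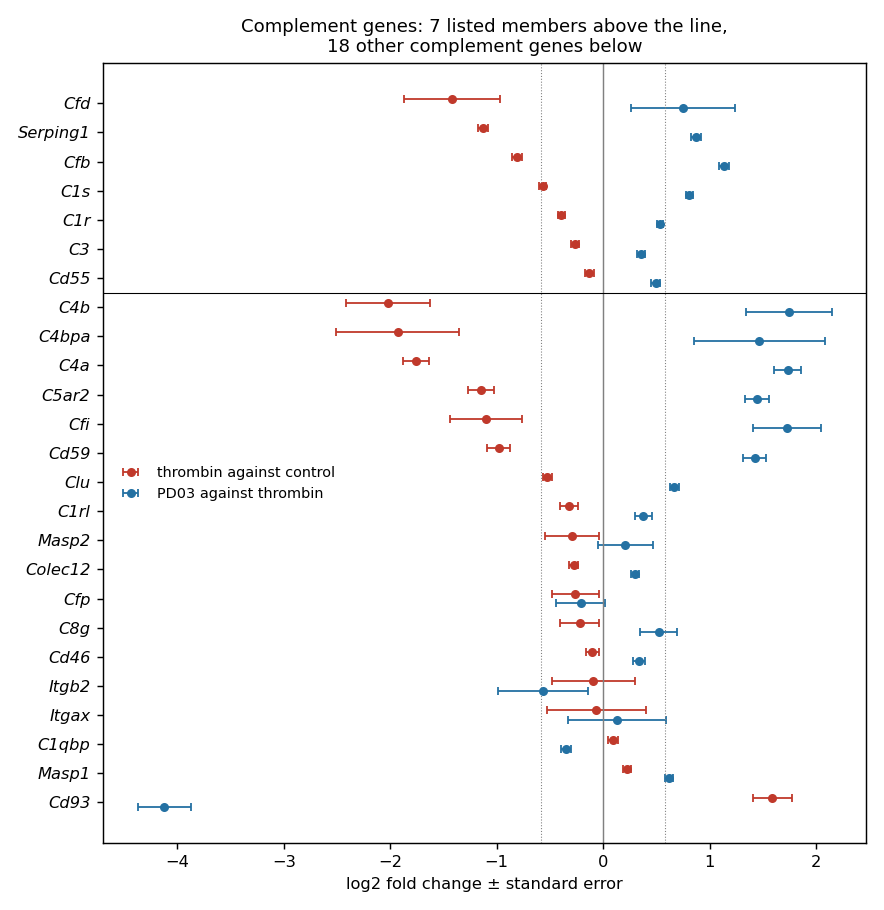
Log2 fold changes with standard errors in the comparisons of thrombin with control and of PD03 with thrombin, for 7 of the members above the horizontal line and 18 other tested complement genes below it. Dotted lines mark the fold threshold of 0.58, and C6 is left out since its thrombin libraries were all at 0. Most genes lie to the left with thrombin and to the right with PD03, while Cd93 and C1qbp lie the other way.

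Among the classical and lectin pathway genes, both C4 genes, which encode the substrate of C1s, fell with thrombin and rose with PD03. C4a (ENSRNOG00000066573) averaged 16.3 ± 1.87 CPM without thrombin and fell to 4.84 ± 0.467 CPM with it (log2 fold change -1.76, standard error 0.12, edgeR adjusted p = 2.4e-15). The PD03 libraries stood at 14.7 to 17.1 CPM, a rise of 1.73 over thrombin (standard error 0.12, edgeR adjusted p = 1.8e-15). C4b had 25 to 29 counts in the control libraries, 5 to 9 with thrombin and 17 to 28 with PD03. The log2 fold changes of C4b were -2.02 (edgeR adjusted p = 7.5e-05) and 1.74 (adjusted p = 3.6e-04). C4a and C4b are near-identical copies, so the division of reads between them is uncertain. Masp1, a protease gene of the lectin pathway, instead rose with PD03 over both other groups. It averaged 208 ± 2.93 CPM in control, 243 ± 7.97 CPM in thrombin and 373 ± 7.23 CPM in PD03 libraries. Its log2 fold change was 0.62 against thrombin (standard error 0.04, edgeR adjusted p = 5.9e-18) and 0.84 against control (standard error 0.04, adjusted p = 5.5e-22). The rise over thrombin fell short of the fold threshold with library totals (0.52) and without Thrombin replicate 2 (0.58). Masp2 and C1rl were not called in any comparison, and their log2 fold changes with thrombin were -0.29 and -0.32.

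Of the soluble regulators, Cfi, the protease that inactivates C3b and C4b, fell with thrombin from 1.64 ± 0.374 to 0.763 ± 0.112 CPM (log2 fold change -1.10, standard error 0.34, edgeR adjusted p = 0.011), a call lost without Control replicate 1 (-0.89, adjusted p = 0.0905). With PD03 it rose to 2.53 ± 0.625 CPM (1.73 over thrombin, standard error 0.32, edgeR adjusted p = 1.3e-05). Clu (clusterin), which binds the forming pore, rose with PD03 from 298 ± 19.2 to 473 ± 26.0 CPM (0.67, standard error 0.04, edgeR adjusted p = 4.0e-17), a call lost with library totals (0.57). In RefSeq, Clu, Cfi, C5ar2 and Masp1 each overlap another gene, whose reads cannot be told apart without strand. C4bpa, a cofactor that acts on C4b, was called in both comparisons on few counts (8 to 22 per control library, 10, 1 and 1 in the thrombin libraries and 9 to 14 per PD03 library), with log2 fold changes of -1.93 (edgeR adjusted p = 0.0091) and 1.47 (adjusted p = 0.044). Its thrombin call was lost without Control replicate 3, Thrombin replicate 2 or Thrombin replicate 3, and its PD03 call without any one of 6 libraries (Control replicate 1, Thrombin replicates 2 and 3, and each PD03 library).

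**Figure D5:**
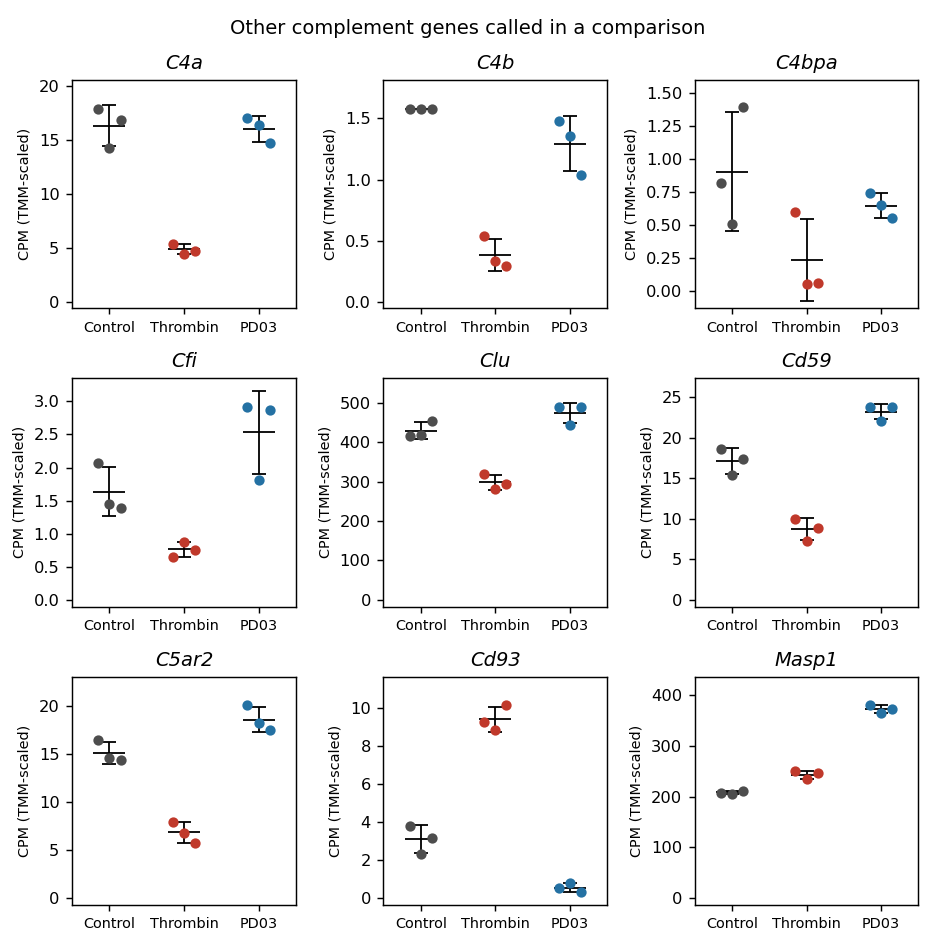
CPM after TMM scaling of 9 complement genes outside the 9 members, each called in at least 1 comparison, 1 point per library with the mean and SD of each group (n = 3). In C4a, C4b, Cfi, Clu, Cd59 and C5ar2 the thrombin libraries lie below all others, and in Cd93 they lie above all others. The share of all tested genes separated in this way was not counted.

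Of the membrane regulators and receptors, Cd59, which stops C9 from completing the pore, fell with thrombin from 17.1 ± 1.62 to 8.68 ± 1.36 CPM (log2 fold change -0.98, standard error 0.11, edgeR adjusted p = 1.1e-09) and rose to 23.2 ± 0.957 CPM with PD03 (1.42 over thrombin, standard error 0.11, adjusted p = 5.3e-15). Cd46, a membrane cofactor, was not called, since its log2 differences of -0.10 (thrombin minus control) and 0.33 (PD03 minus thrombin) were under the fold threshold. C5ar2, a receptor for the C5a fragment, fell from 15.1 ± 1.12 to 6.85 ± 1.10 CPM with thrombin (-1.15, standard error 0.12, edgeR adjusted p = 1.3e-10) and rose to 18.6 ± 1.33 CPM with PD03 (1.44 over thrombin, standard error 0.12, adjusted p = 3.8e-14). Cd93, a membrane protein first described as a receptor for C1q, went the opposite way. It rose from 3.10 ± 0.737 to 9.42 ± 0.667 CPM with thrombin (1.59, standard error 0.18, edgeR adjusted p = 1.9e-09) and fell to 0.538 ± 0.236 CPM with PD03 (-4.12 relative to thrombin, standard error 0.25, adjusted p = 6.9e-18), with 5 to 12 counts per PD03 library. The summed macrophage markers, nearly all Cd14, were likewise highest with thrombin and lowest with PD03, with Ptprc and Adgre1 at 8 counts or fewer. Csf1r, the other tested marker of that list, was instead highest with PD03 (mean 1.24 CPM, against 0.746 CPM with thrombin and 0.440 CPM in control). The summed endothelial markers were also highest with PD03 (12.0 to 14.1 CPM, against 7.35 to 9.75 CPM with thrombin and 7.89 to 8.90 CPM in control). The part of macrophages or endothelial cells in the levels of Cd93 was not tested. The leukocyte integrin genes Itgax and Itgb2 had log2 fold changes of -0.06 and -0.09 with thrombin and were not called. C8g, called in no comparison, has a deposited length of 6613 bases against a RefSeq gene of 1585 bases, and whether its row counts reads from outside that gene was not tested.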

How the data were processed

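The authors sequenced polyadenylated RNA from osteoblasts in 9 libraries and deposited, for each gene and library, a raw read count and an FPKM value. The paper names fastp, HISAT2, the Rnor_6.0 genome and featureCounts, whereas the submitters' processing notes name HISAT2, HTSeq 0.13.5 and mRatBN7.2, so the build and the counter are uncertain. The deposited FPKM equals the count divided by gene length and by the library's total, and it served for levels between genes and as an alternative.

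Genes were kept with edgeR 4.0.16 filterByExpr (minimum count 10), which left 13256. After TMM scaling, 1 quasi-likelihood model covered the 3 groups (R 4.3.3), with Benjamini-Hochberg adjustment over every tested gene. A gene was called at an adjusted p under 0.05 with a log2 fold change of over 0.58 in size. Standard errors came from the F statistic, and CPM are TMM-scaled. The biological coefficient of variation was 4.28%. Libraries of the same group were not duplicates (chi-square of 1.82 to 3.99 per degree of freedom, above counting noise). Each counted as 1 sample, although this check cannot show that they came from separate cultures. The procedure was tested on simulated data.

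The members, the list of 48 other complement genes, the acute-phase list, the cell markers and the rules for naming genes were chosen with earlier results of these data known. All members were given with every library's value, and genes of the complement and acute-phase lists were named where called in any comparison, with the exception given below. Markers were given mainly as sums. The nearest gene to a member was the tested gene with at least 1 CPM in its highest group and the smallest distance over the 9 libraries (log2 CPM with a prior count of 2). Of the 48 symbols, 17 matched no row and were not analysed here. The counts for that list cover all 19 tested genes, but values for 1 of them are not reported here. Promoters were read from a RefSeq table (GRCr8), and Python 3.11.15 with matplotlib 3.10.9 drew the plots. Alternatives used DESeq2 1.42.0 and limma 3.58.1, other scalings and filters, other thresholds, FPKM with 1 or 0.1 added, a replicate block, and leaving out single libraries.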

Additional observations from a re-analysis of the deposited data

How the results depend on the processing

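Without the fold threshold, 3808 genes were called for thrombin against control, 6608 for PD03 against thrombin and 5289 for PD03 against control. These counts are out of 13256 tested genes. Among them were 8, 7 and 6 of the 8 tested members, and 12, 15 and 8 of the 19 other complement genes, in the same order. Under edgeR's glmTreat, which tests against the fold threshold, the genes called were 460, 1051 and 499, with 0 members for PD03 against control (1 at an unadjusted p under 0.05) and 6 other complement genes for PD03 against thrombin. With FPKM plus 1 they were 543, 1254 and 676, with 0 members for PD03 against control under limma (0 at an unadjusted p under 0.05 past the fold, 6 at any fold) and 4, 5 and 1 other complement genes. With only genes averaging 50 or more counts, where C6 and Cfd were not tested, 2 members and 4 other complement genes were called for thrombin against control, and 0 members for PD03 against control by edgeR (0 at an unadjusted p under 0.05 past the fold, 6 at any fold). On gene sets that kept C6, DESeq2 and limma voom each called 1 member (C6) for PD03 against control, as the main edgeR fit did. Leaving out 1 library at a time gave 989 to 1085, 2043 to 2152 and 1168 to 1205 genes, 3 to 5, 4 to 4 and 1 to 1 members, and 6 to 7, 8 to 10 and 2 to 4 other complement genes. The value of 4 came without Control replicate 1 and without PD03 replicate 2. The cause of these differences was not tested beyond what the settings themselves do.

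With the replicate number as a block, 1067, 2103 and 1187 genes, 4, 4 and 1 members, and 7, 10 and 2 other complement genes were called. The deviations of same-numbered libraries correlated between -0.0456 and 0.0523, so the numbers were not taken to pair the samples. Over single genes, 446 of 474 alternatives for members and 547 of 591 for other complement genes kept their direction and side of the threshold, and no called gene changed sign. Among genes not called, C3 for PD03 against control turned from 0.08 to -0.03 with library totals (-0.0323), FPKM plus 1 (-0.0302) and FPKM plus 0.1 (-0.0306), and Lcn2 for PD03 against thrombin turned from 0.02 to -0.08 with library totals (-0.0806), FPKM plus 1 (-0.0797) and FPKM plus 0.1 (-0.0800). Leaving out single libraries gave -0.0451 to 0.0491 for Lcn2 in that comparison (below 0 without Thrombin replicate 2 or PD03 replicate 1), and for PD03 against control -0.122 to 0.0451 for C4a (above 0 without Control replicate 1 or PD03 replicate 3) and -0.0626 to 0.0148 for Cp (above 0 without PD03 replicate 1). Depth limits Cfd, C6, C4b, C4bpa and Cfi, at 55 or fewer counts in any library.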

Other observations

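The acute-phase proteins are secreted in inflammation, several of them together with C3 and Cfb. Of a list of 23 genes, 15 matched a row by symbol and 11 were tested. The list also holds the metallothionein genes Mt1 and Mt2A, which do not encode secreted proteins of this kind and are part of the shares below. It was drawn up with earlier results of these data known, so the shares are a description. With thrombin, 7 of the 11 (A2m, Cp, Lbp, Lcn2, Mt1, Mt2A and Ptx3) were called lower (63.6%, against 8.06% of all tested genes), with a median log2 fold change of -0.85. Ptx3, which encodes a soluble receptor that binds C1q, fell from 722 ± 28.5 to 389 ± 8.51 CPM (log2 fold change -0.89, edgeR adjusted p = 7.6e-24) while PD03 libraries averaged 420 ± 8.01 CPM. Lcn2, an iron-siderophore binder, fell from 387 ± 4.18 to 228 ± 15.2 CPM (-0.76, edgeR adjusted p = 2.1e-19) while the PD03 mean was 231 ± 8.48 CPM. Lbp, which encodes a lipopolysaccharide carrier, fell from 588 ± 23.7 to 326 ± 14.3 CPM (-0.85, edgeR adjusted p = 3.4e-22) but rose to 740 ± 25.5 CPM with PD03 (1.18 against thrombin, adjusted p = 1.2e-27).

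With PD03 against thrombin, 6 of the 11 were called higher and 2 lower (72.7%, against 15.9% of all tested genes), the higher being A2m, Cp, Hp, Hpx, Lbp and Orm1. Cp had a log2 fold change of 0.59, at the edge of the fold threshold, and was not called under 7 of the 11 alternatives that kept all libraries or without any one of 6 libraries, and Hp (0.88) was not called without Thrombin replicate 2 (edgeR adjusted p = 0.0515). The 2 lower genes were the metallothioneins, which bind metals. Mt1 averaged 35.7 ± 0.447 CPM in control libraries, 3.39 ± 0.290 CPM with thrombin (-3.39, edgeR adjusted p = 1.9e-26) and 1.01 ± 0.0346 CPM with PD03 (-1.74 against thrombin, edgeR adjusted p = 1.6e-09). Mt2A averaged 179 ± 10.6, 44.8 ± 2.26 and 13.9 ± 2.32 CPM in the same order. With PD03 against control, 2 genes were called higher (Hpx and Orm1) and 4 lower (Lcn2, Ptx3, Mt1 and Mt2A), which is 54.5% against 8.97% of all tested genes, and Orm1, on 7 to 31 counts per library in these groups, was no longer called on leaving out any one of Control replicates 2 and 3 or PD03 replicates 1 and 2, with library totals or under DESeq2.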
